A study of Drosophila melanogaster with 29 samples.

Results

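The genes described here encode 10 receptors for the biogenic amines serotonin, dopamine and octopamine in *Drosophila melanogaster*. They were taken by symbol: 5 serotonin receptors (*5-HT1A*, *5-HT1B*, *5-HT2A*, *5-HT2B* and *5-HT7*), 4 dopamine receptors (*Dop1R1*, *Dop1R2*, *Dop2R* and *DopEcR*) and the octopamine receptor *Oamb*. All 10 had a row among the 7602 genes of the deposited RNA table. The study profiled nuclei of photoreceptors, the light-sensing neurons of the eye, in 29 samples, of which 3 were nuclear RNA-seq libraries and 26 were chromatin assays not analysed here. The 3 RNA libraries form 1 group with no RNA control, so libraries are compared with each other and genes with other genes, not conditions.

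All 3 libraries came from male flies 10 days after eclosion, kept at 25 °C with 12 h of light and 12 h of darkness. The flies were mutant for white (*w*). On chromosome 3 they carried the reporter UAS-GFP-Msp300KASH at the site attP2, marked with w[+mC], the driver rh1-GAL4, marked with ry[+t7.2], and the rosy allele *ry*[506]. The KASH domain of Msp300 holds green fluorescent protein on the nuclear envelope. The driver uses the promoter of the Rh1 rhodopsin gene *ninaE*, which is active in the outer photoreceptors of the compound eye. Heads were separated by freezing and vortexing before the tagged nuclei were isolated, and the labels name retina as the source. Heads also hold brain, glia, fat body and muscle. The labels do not say whether the 3 libraries came from separate batches of flies, so their spread may be technical in part.

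Amine receptors are membrane proteins with 7 transmembrane helices that act through G proteins. Some raise cyclic AMP through the stimulatory G alpha subunit, some lower it through inhibitory subunits, and some release calcium through phospholipase C. Serotonin has been reported to shift the voltage dependence of potassium channels in fly photoreceptors, and dopamine, serotonin and octopamine reach the optic lobes from wide-field brain neurons.

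*DopEcR* was far above the other members. This receptor, FBgn0035538 on chromosome 3L from 4367649 to 4380387 (Release 6 assembly), responds to dopamine and to the insect steroid hormone ecdysone. It had 3850, 2744 and 4053 reads in replicates 1, 2 and 3, or 4952, 4098 and 5358 normalized counts. Normalized counts are reads after scaling each library by its DESeq2 size factor, so that libraries can be compared. Replicate 3 was the highest and replicate 2 the lowest, and in each of them *DopEcR* exceeded every other receptor. Its mean of 4803 ± 643 normalized counts (SD, n = 3) placed it 170th among the 7602 genes, above 97.8% of them. It supplied 91.4% ± 1.3 of the normalized counts of all 10 receptors. In these bulk nuclei, fewer cells with a transcript and less of it per cell cannot be told apart, for *DopEcR* as for the other receptors.

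The remaining dopamine receptors were lower and differed among themselves. *Dop1R1* (FBgn0011582; chromosome 3R, 14165379 to 14214810), a D1-like receptor that raises cyclic AMP and is needed for olfactory learning, had 99, 91 and 104 reads. Its normalized counts of 127, 136 and 137 in replicates 1, 2 and 3 were close together, with a mean of 133.6 ± 5.5 (SD, n = 3). *Dop2R* (FBgn0053517; chromosome X, 20004680 to 20062706), a D2-like receptor that lowers cyclic AMP, had 69, 61 and 88 reads, or 88.7, 91.1 and 116 normalized counts. Both lay above the median gene of the table, which had 56.8 normalized counts. *Dop1R2* (FBgn0266137; chromosome 3R, 29630304 to 29659984), which couples to calcium release as well as to cyclic AMP, had 20, 17 and 20 reads. Its normalized counts of 25.7, 25.4 and 26.4 lay below the median gene in all 3 libraries.

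The 5 serotonin receptors were all below the table median. *5-HT1A* and *5-HT1B* lower cyclic AMP, and lie on chromosome 2R with a gap of 34.5 kb and 3 annotated genes between them. *5-HT1A* (FBgn0004168) had 32, 38 and 24 reads, or 41.2, 56.8 and 31.7 normalized counts. *5-HT1B* (FBgn0263116) had 13, 15 and 27 reads, or 16.7, 22.4 and 35.7 normalized counts. The first was lowest in replicate 3 and the second highest there. Per kb of gene span, *5-HT1B* was above *5-HT1A* in all 3 libraries.

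*5-HT2A* and *5-HT2B* belong to the serotonin receptor class that signals through phospholipase C and calcium. *5-HT2A* (FBgn0087012; chromosome 3R, 4612870 to 4633304) had 33, 33 and 24 reads, or 42.4, 49.3 and 31.7 normalized counts. *5-HT2B* (FBgn0261929; chromosome 3R, 8578205 to 8629996) was the lowest member, with 10, 11 and 6 reads, or 12.9, 16.4 and 7.93 normalized counts. Counting error alone allows 4.80 to 18.4 reads in replicate 1 and 2.20 to 13.1 in replicate 3 (exact Poisson 95% intervals), so its libraries could not be ordered at this depth. *5-HT7* (FBgn0004573; chromosome 3R, 30968236 to 31016875), which raises cyclic AMP, had 24, 20 and 25 reads, or 30.9, 29.9 and 33.0 normalized counts.

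*Oamb* (FBgn0024944; chromosome 3R, 20689018 to 20714577), an octopamine receptor that releases calcium, had 32, 21 and 26 reads. Its normalized counts were 41.2, 31.4 and 34.4, with replicate 1 the highest and all 3 below the table median.

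**Figure D1:**
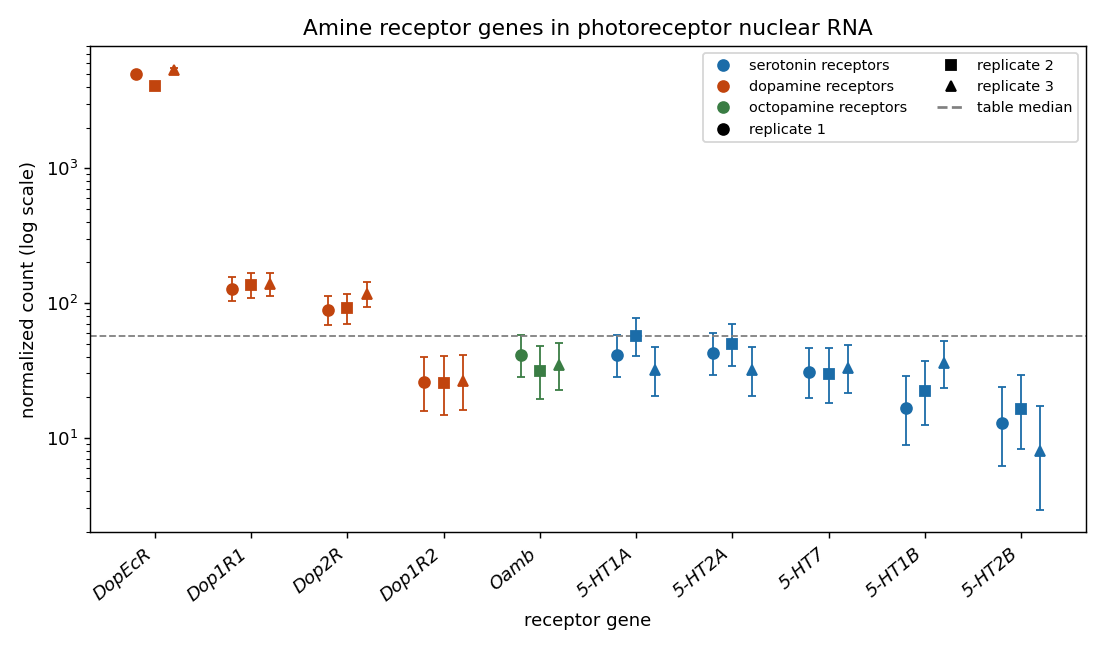
Normalized count of each receptor gene (log axis) in replicates 1 (circle), 2 (square) and 3 (triangle), coloured by amine, with exact Poisson 95% intervals that cover counting error only. *DopEcR* sits between 4098 and 5358, and no library of another receptor passes 137.5. The dashed line is the table median of 56.8.

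As a list, 3 of the 10 receptors lay above the table median, which by construction has as many genes above it as below. The 3 were the dopamine receptors *DopEcR*, *Dop1R1* and *Dop2R*. On the log2(normalized count + 1) scale the median receptor had a level of 5.30. Its difference from the median of all genes was −0.56, and by library it was −0.59 ± 0.13 (SD, n = 3). Together the receptors held 0.109% ± 0.008 of normalized counts, of which the 9 without *DopEcR* held 0.00932% ± 0.00066. Those 9 ranged 10.8-fold, from *5-HT2B* to *Dop1R1*, in counts not divided by length. On the same scale *DopEcR* exceeded *5-HT2B* 387-fold.

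The receptor genes are long, which matters for nuclear RNA if unspliced reads were counted. Their median span from start to end in the reference was 39.2 kb, against 3.62 kb for genes of the table with a mean of at least 10 normalized counts. Across those 6858 genes with a span, log2 level and log2 span were related (Pearson's r 0.52, Spearman's rank correlation 0.53), as a description across genes of the same libraries. Whether introns were counted is not given in the sources used here, and exon lengths were not used here. Levels of different genes were therefore compared per kb of gene span, which divides by introns too.

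**Figure D2:**
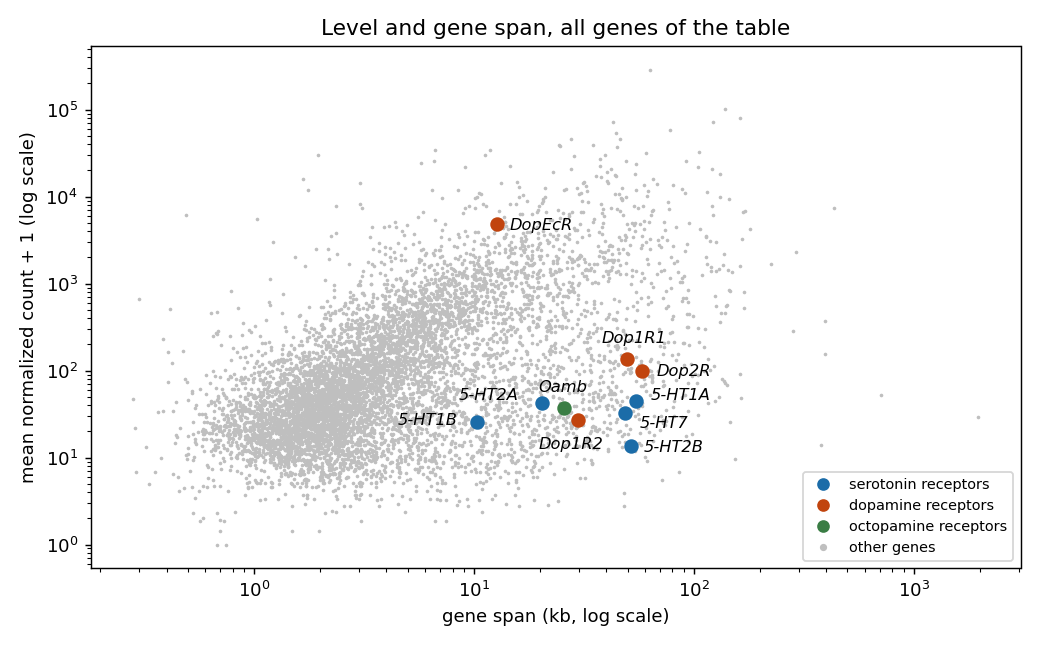
Mean normalized count + 1 against gene span in kb (both log axes) for all genes of the table with a span (grey) and the 10 receptors (coloured by amine). *DopEcR* lies in the upper part of genes of its span, though not the highest, while the other 9 receptors lie in the lower part of theirs.

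Among genes whose span was within a factor of 2 of its own, a comparison chosen after the values were seen, *DopEcR* exceeded 96.9% of 1685 genes. The other 9 receptors exceeded between 3.43% (*5-HT2B*) and 42.1% (*Dop1R1*) of the genes of like span, and all 9 were below the median of those genes.

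Per kb of gene span, the order of the receptors began with *DopEcR* at 389, 322 and 421 normalized counts per kb in replicates 1, 2 and 3, a mean of 377 ± 50 (SD, n = 3). *DopEcR* was the only member above 19.6 per kb, the median of the 7553 genes with a span, and exceeded 97.9% of them. *Dop1R1* followed at 2.70 ± 0.11, then *5-HT1B* at 2.42 ± 0.94, *5-HT2A* at 2.01 ± 0.43, *Dop2R* at 1.70 ± 0.26 and *Oamb* at 1.39 ± 0.20 normalized counts per kb. The lower end held *Dop1R2* at 0.871 ± 0.018, *5-HT1A* at 0.789 ± 0.231, *5-HT7* at 0.643 ± 0.033 and *5-HT2B* at 0.240 ± 0.082. The short span of *5-HT1B*, 10.3 kb, moved it from 9th by count to 3rd per kb, and the 54.8 kb of *5-HT1A* moved that gene from 4th to 8th.

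Most neighbours in this order could not be separated. Of the 9 neighbouring pairs, 3 had ranges over the 3 libraries that did not overlap: *DopEcR* over *Dop1R1*, *Oamb* over *Dop1R2*, and *5-HT7* over *5-HT2B*. Such ranges leave out counting error. *Oamb* over *Dop1R2* rested on 32, 21 and 26 against 20, 17 and 20 reads. *5-HT7* over *5-HT2B* rested on 24, 20 and 25 against 10, 11 and 6 reads. At this depth separate ranges do not settle the order within either pair. *DopEcR* was above *Dop1R1* by a log2 ratio of 7.12 ± 0.21 (SD, n = 3). In the other 6 pairs the ranges overlapped, and the 5 genes from *Dop1R1* to *Oamb* form a run in which each overlaps the next. *Oamb* over *Dop1R2* was a log2 ratio of 0.67 ± 0.20 and *5-HT7* over *5-HT2B* one of 1.49 ± 0.61 (SD, n = 3), both above 0 in 3 of 3 libraries. An exact sign-flip permutation test gives each of these a two-sided p of 0.25, the smallest that 3 libraries allow.

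**Figure D3:**
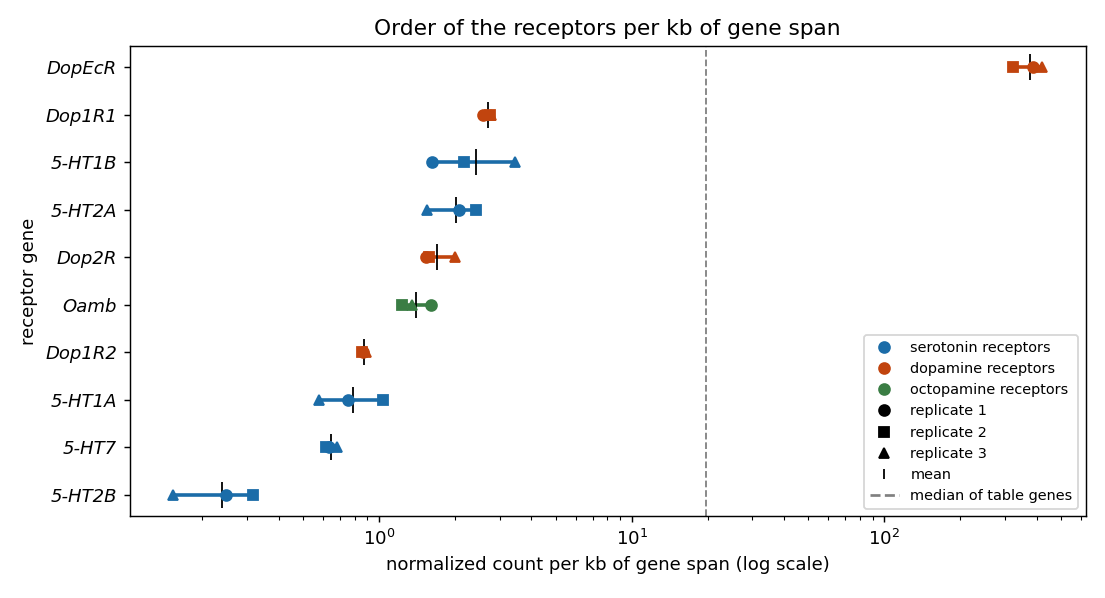
Normalized count per kb of gene span (log axis) for each receptor, with the 3 libraries as symbols, the mean as a black tick and the range as a line. Apart from *DopEcR*, all receptors lie left of the dashed line at 19.6, the median of genes with a span, and most neighbouring ranges overlap.

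The dopamine receptors summed to 382 ± 51 normalized counts per kb and the serotonin receptors to 6.10 ± 0.67 (SD, n = 3). Their log2 ratio was 5.97 ± 0.29 and positive in every one of the 3 libraries, for which the two-sided exact permutation p of 0.25 is the smallest possible. That ratio rested on 1 gene. Without *DopEcR*, an alternative added after the values were seen, it was −0.21 ± 0.12 per kb (below 0 in 3 of 3 libraries) and 0.76 ± 0.23 in counts not divided by length (above 0 in 3 of 3). The direction between the other 3 dopamine receptors and the 5 serotonin receptors therefore depended on the division by length. *DopEcR* alone exceeded the sum of the other 9 receptors by 29.6 ± 4.2-fold per kb and by 10.8 ± 1.6-fold in counts.

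Agreement between libraries was tested for every gene with a mean of at least 10 normalized counts, by a chi-square test of its reads against the size factors. Of the 10 receptors, all of which were tested, 1 passed a Benjamini-Hochberg adjusted p of 0.05, beside 9.76% of the 6903 genes tested. That gene was *DopEcR* (chi-square adjusted p 1.06e-24), with a ratio of 1.31 between its highest and lowest library. It was also the most deeply read: 43.2% of the 651 genes whose means were between 1000 and 10000 normalized counts were called, with a median ratio of 1.20 among those called. Replicate 2 was the lowest for *DopEcR* and replicate 3 the highest also with libraries scaled to equal totals, where the ratio was 1.20, and with trimmed mean scaling, where it was 1.27.

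The other 9 receptors did not pass, and none had an unadjusted p under 0.05. At their depth 2.57% of the 4156 genes tested within their range of levels were called. The largest ratios between libraries were 2.13 for *5-HT1B* (chi-square adjusted p 0.255) and 2.07 for *5-HT2B* (0.661), both on few reads. The lowest coefficients of variation were 2.07% for *Dop1R2*, 4.09% for *Dop1R1* and 5.20% for *5-HT7*. Counting error at their depth is wider than this spread. For the 20 reads of *Dop1R2* in replicate 1 the exact Poisson 95% interval was 12.2 to 30.9. These low values therefore do not show that the 3 genes were steadier than the others.

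**Figure D4:**
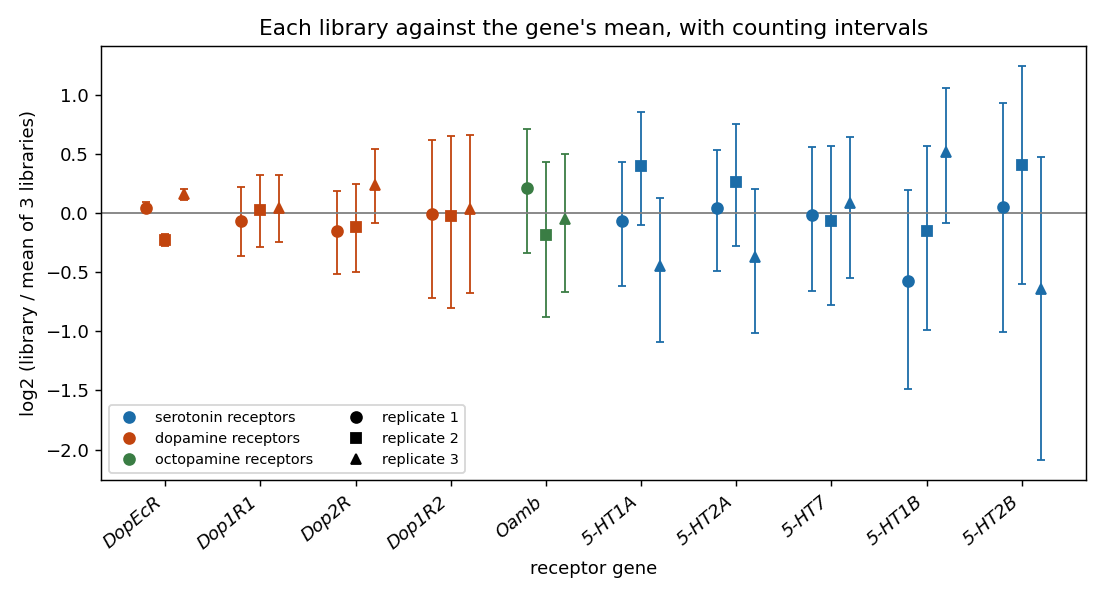
Log2 of each library's normalized count over the gene's mean of 3 libraries, with exact Poisson 95% intervals (counting error only). For *DopEcR* the 3 narrow intervals are apart from each other, while for the other 9 receptors all intervals of a gene overlap.

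Since the nuclei came from whole heads, genes that mark cells without the driver were measured beside the receptors. Of 36 listed markers of 6 other cell groups (aminergic and other neurons, glia, lens and pigment cells of the eye, muscle, and a joint list for blood and fat body), 31 had a row, and none of the 31 was at 0 in any library. Their means ran from 3.68 (*wrapper*) to 217 (*Hml*) normalized counts, with a median of 37.1, and they summed to 2306, 2272 and 2348 in replicates 1, 2 and 3. The 9 lower receptors, with means from 12.4 to 133.6 and a median of 35.6, all lay within that range. Most genes of the table lay within it too, since 1.39% of them were below *wrapper* and 74.1% below *Hml*. Per kb, 8 of the 9 lay within the range of the markers, *5-HT2B* at 0.240 lay below the lowest marker, *Tbh* at 0.398, and all 9 lay below the marker median of 6.81. Of genes with a span, 1.48% lay below *Tbh* per kb and 90.3% below *Cpr72Ec*, the highest marker, so most genes lay within this range as well. Spans were not matched in this comparison. The median span of the 9 was 48.6 kb, and the markers ran from 1.45 kb (*Cpr72Ec*) to 70.4 kb (*ct*). *DopEcR* was 22.2-fold above the highest of these markers in counts and 3.35-fold above the highest per kb, *Cpr72Ec*. The part of RNA from other cells in the levels of the 9 lower receptors was not tested.

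Photoreceptor markers gave the opposite scale. All 11 were in the top 10% of the table. Per kb of gene span they ran from 178 (*Hdc*, which makes histamine, the photoreceptor transmitter) to 15432 (*ninaE*) normalized counts. By count *DopEcR* was above 2 of the 11, *Hdc* and *gl*, a transcription factor of photoreceptor identity. Per kb, at 377, it was above *Hdc* alone and below *gl* at 743.

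The cells that release these amines are marked by their synthesis and uptake genes. The 8 markers of aminergic neurons, 7 of which had a row, held 0.00821% ± 0.00038 of normalized counts (SD, n = 3). *ple*, the tyrosine hydroxylase that starts dopamine synthesis, had 89, 58 and 102 reads, and *Vmat*, which loads amines into vesicles, had 120, 83 and 116. *Ddc*, also on the list, had 52, 45 and 71 reads. By count these 3 of the 7 lay above the table median, and per kb 1 of the 7 lay above the median of genes with a span. The uptake transporters for serotonin and dopamine were near the floor of the table: *SerT* had 1, 10 and 8 reads and *DAT* 4, 9 and 7. *Tbh*, which makes octopamine, had 11, 7 and 10 reads, and *Tdc2* had no row. Since the filter behind the table is unstated, a missing row sets no limit on a gene's level.

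Among the other synthesis genes, *Trhn*, the neuronal tryptophan hydroxylase of serotonin synthesis, had 24, 33 and 12 reads and passed (chi-square adjusted p 0.0228), 1 of 7 tested in its list beside 9.76% of all genes. The call was lost without replicate 2, without replicate 3 and at an adjusted p under 0.01, and with libraries scaled to equal totals *Hdc* was called too. The synthesis list, with 8 of 9 genes in the table, was led by *Hdc* with 1114, 1005 and 1048 reads, and its median differed from that of all genes by −0.38 (log2) in counts and was 13.0 per kb, against 19.6 for genes with a span. *ple* had an unadjusted p under 0.05 but did not pass (chi-square adjusted p 0.160). In the list of transport and breakdown genes, 9 of 10 had a row, 5 were tested and 0 passed, with 0 also at an unadjusted p under 0.05, although *CarT* was called with libraries scaled to equal totals. It was led by genes of the histamine cycle: *t*, which frees histamine from carcinine, at 3006 ± 41, and *CarT*, which carries carcinine into photoreceptors, at 1392 ± 64 normalized counts. The median of the list differed from that of all genes by −0.68 (log2) in counts and was 6.13 per kb.

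Further receptors for small transmitters were measured in a list of 13, of which 12 had a row, 9 were tested and 0 passed, with 1 at an unadjusted p under 0.05. The list median differed from that of all genes by −0.23 (log2) in counts, and per kb it was 1.89 against 19.6. *Octalpha2R*, an octopamine receptor that lowers cyclic AMP, was that gene, with 88, 48 and 95 reads (chi-square adjusted p 0.05003, just above the threshold), and was lowest in replicate 2. It was called with a minimum mean of 50 and without replicate 1. The octopamine receptors that raise cyclic AMP were *Octbeta2R* with 117.8 ± 5.3 normalized counts, *Octbeta3R* with 39, 34 and 37 reads, and *Octbeta1R* with 48.1 ± 2.8 normalized counts (SD, n = 3). Per kb they stood at 2.61 ± 0.12, 1.36 ± 0.03 and 2.11 ± 0.12, within the range of the 9 lower receptors. The tyramine receptors had few reads, with 2, 1 and 8 reads for *Oct-TyrR*, 11, 6 and 4 for *TyrR*, and 4, 8 and 10 for *TyrRII*.

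The highest receptors of this list, per kb and by count, respond to histamine and adenosine. *HisCl1*, a histamine-gated chloride channel, had 384 ± 37 normalized counts, or 173 ± 17 per kb. *ort*, the second histamine-gated channel and the one used by target neurons in the lamina, had 6, 3 and 6 reads. *AdoR*, the adenosine receptor, had 253 ± 5 normalized counts, or 17.1 ± 0.4 per kb. The muscarinic acetylcholine receptors *mAChR-A* and *mAChR-B* had 48.7 ± 3.7 and 20.7 ± 6.1 normalized counts, and *mAChR-C* had no row. All stood below *DopEcR* at 377 per kb.

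Genes listed as G alpha subunits and effectors had more counts than most genes, but less so per kb. The list is not specific to amine receptors, and its gene with the highest mean is also a photoreceptor marker. In the list of G alpha subunits and effectors, 26 of 28 genes had a row, 23 lay above the table median, and the list median stood 3.35 above that of all genes (log2) in counts. Per kb of gene span, 14 of the 26 lay above the median of 19.6, and the list median was 28.0. *Galphas*, the stimulatory subunit, had 537 ± 68 normalized counts and *Galphao* 931 ± 61, whereas *Galphai*, an inhibitory subunit, had 11, 6 and 17 reads. The highest adenylyl cyclase gene measured was *rut*, the calcium-responsive form known from learning mutants, at 4952 ± 239 normalized counts or 128 ± 6 per kb. The cyclase genes *Ac3*, *Ac13E*, *Ac76E* and *Ac78C* had means from 56.1 to 105.7 normalized counts, or 1.58 to 5.44 per kb.

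Cyclic AMP is broken down by phosphodiesterases and acts mainly through protein kinase A. The phosphodiesterase genes *Pde1c* and *dnc* had 11406 ± 290 and 6619 ± 522 normalized counts, the latter over a span of 167 kb. The kinase subunits *Pka-R1*, *Pka-R2* and *Pka-C1* had 2906 ± 274, 1788 ± 275 and 1552 ± 153 normalized counts (SD, n = 3). *Epac*, another cyclic AMP sensor, had 146 ± 18. Between the libraries 11 of the 26 genes tested in this list passed the chi-square test, among them *Galphas* (adjusted p 0.0312), *rut* (0.00368) and *dnc* (2.09e-11), beside the same 9.76% of all genes. The call of *Galphas* was lost with equal totals, with trimmed mean scaling, at an adjusted p under 0.01 and without replicate 2, that of *rut* without replicate 3, and that of *dnc* without replicate 2. Calls rose with level over the whole table. Of all genes tested, 2.28% were called at means from 10 to 50 normalized counts and 3.12% from 50 to 200. The share was 14.4% from 200 to 1000, 43.2% from 1000 to 10000 and 94.9% at 10000 and above. Over all 5 pathway lists 16 of 55 genes tested passed, and this share was not matched for level. Without replicate 2, 6 did, beside 4.99% of all genes tested, and without replicate 3, 9 did, beside 3.52%.

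Receptors are switched off by kinases, arrestins and regulators of G protein signaling. All 8 listed genes had a row and were tested, and 4 passed, beside 9.76% of all genes. That share of all genes is not matched for level, with which calls rose as given above. The list median stood 3.74 above that of all genes (log2) in counts, but per kb it was 18.6, below the 19.6 of genes with a span, with 4 of the 8 above. The receptor kinases *Gprk1* and *Gprk2* had 1364 ± 283 and 555 ± 67 normalized counts, both past the chi-square threshold (adjusted p 5.12e-17 and 0.0287). The call of *Gprk2* was lost under both other scalings, at an adjusted p under 0.01, and without replicate 2 or replicate 3. The visual arrestins *Arr1* and *Arr2*, at 14421 ± 689 and 15741 ± 561, also passed, but *Arr1* did not without replicate 3 and *Arr2* did not without replicate 2. *krz*, the arrestin of non-visual receptors, had 200 ± 19 normalized counts and did not pass (0.580). The regulators *loco* and *RSG7* had 29.3 ± 4.0 and 68.8 ± 4.0 normalized counts.

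**Figure D5:**
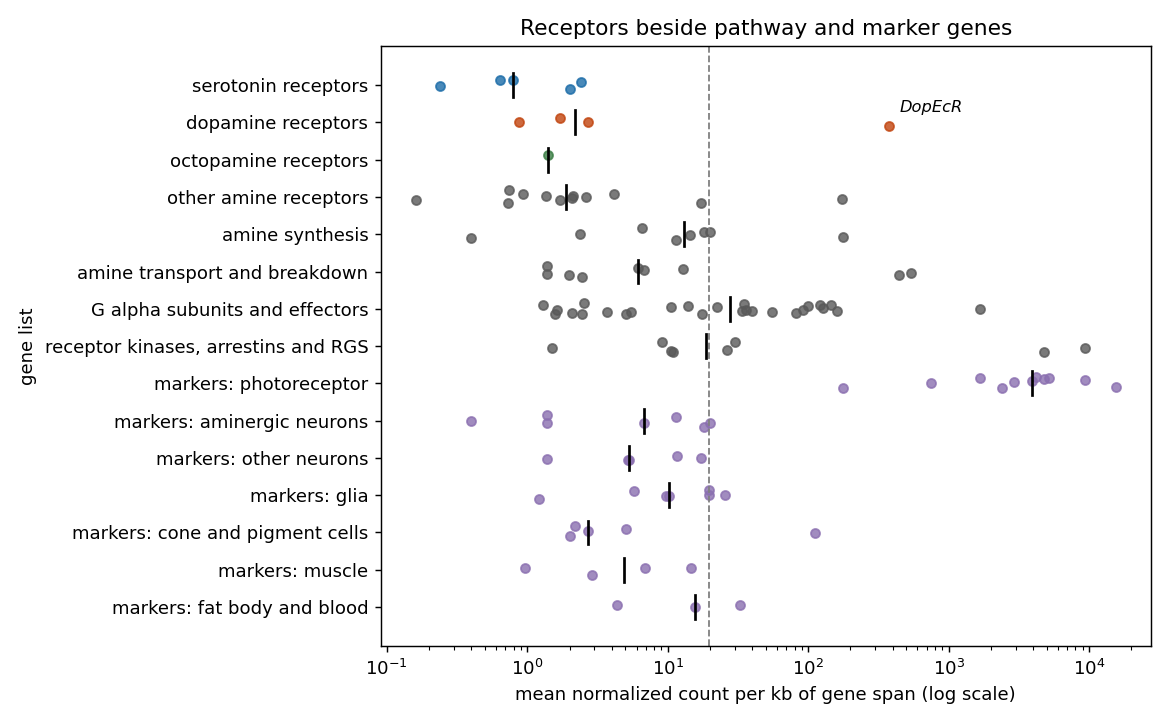
Mean normalized count per kb of gene span (log axis) for each gene of the receptor, pathway and marker lists with a row, with the list median as a black bar. *DopEcR* is the one serotonin, dopamine or octopamine receptor to the right of the dashed line at 19.6, the median of genes with a span.

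In the reference annotation 6 of the 10 receptor genes overlap other genes. The overlapping genes cover from 0.618% (*5-HT2B*) to 4.99% (*5-HT7*) of the span. In *DopEcR* the overlap with a long noncoding RNA gene is 632 bases, or 4.96% of the span of *DopEcR*. None of the overlapping genes has a row of its own. The strand setting of the counting is not given in the sources used here, so reads of such genes could not be separated from those of the receptor.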

How the data were processed

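Nuclear RNA from 3 libraries was analysed. The table deposited by the authors holds log2 values of 7602 genes, and its name states DESeq2 normalization. The base and an added 1 were read from the values. The submitters' processing notes list Trimmomatic, STAR, Bowtie2, SAMtools, DESeq2 and, among others, chromatin tools, with the builds dm6 and BDGP6, with no role or order. Per the labels' protocols, libraries were made from 10 ng of RNA with the Nugen SoLo system. The counter, annotation, strand setting and gene filter are not given in the sources used here. 0 columns of sample values lacked a sample.

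Once the log2 scale and the added 1 were undone, 100% of values were whole multiples of what 1 read is worth (tolerance 0.001). Reads recovered this way summed to 3781302, 3051440 and 3769863, with 1 read worth 1.29, 1.49 and 1.32 normalized counts. Intervals and tests on reads cover counting error only, and the sources used here do not say whether PCR copies were removed.

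FlyBase identifiers were turned into symbols for 7553 of 7602 genes, and gene spans and coordinates from RefSeq's Release 6 plus ISO1 MT annotation, matched by symbol or unique synonym. Exon and coding lengths were planned but not used here, so span took their place. One marker symbol, *FBp1*, was not matched, and *AANAT1* was looked up as *speck*, which had no row.

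The chi-square test ran across all genes with a mean of at least 10, with Benjamini-Hochberg adjustment at 0.05, after a check on simulated data. Ratios between receptor classes were tested by an exact sign-flip permutation over the 3 libraries. Alternatives were other scalings, pseudocounts, minimum means, division by length and leaving out each library. The named genes are the members and the fixed pathway and marker lists, of which 1 gene is not reported here, and members and lists were chosen with earlier results of these data known. The tools were scipy 1.17.1, numpy 2.4.6, pandas 2.3.3 and matplotlib 3.10.9 in Python 3.11.15.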

Additional observations from a re-analysis of the deposited data

How the results depend on the processing

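*DopEcR* was the one receptor called under each of the 8 settings tried: other scalings, minimum means of 1 and 50, an adjusted p under 0.01, and each library left out. Only 3 receptors were tested at a minimum mean of 50, and the share of all genes called ran from 3.52% without replicate 3 to 17.1% at that minimum. The log2 level of the receptors against the table median was −0.56; it was −0.87 when genes of means under 10 were left out and −3.02 per kb of gene span, where 1 receptor instead of 3 lay above the median. With one library left out it ran from −0.63 to −0.49. The count of neighbouring pairs with separate ranges, 3, was 5 without division by length and ran from 4 to 6 with one library left out, since fewer libraries give narrower ranges. The log2 ratio of dopamine to serotonin receptors, 5.97, was 5.05 without division by length, ran from 5.85 to 6.13 with one library left out, and reversed to −0.21 without *DopEcR*, a setting added after seeing the data. The receptors' share of normalized counts, 0.109%, was 0.133% of the total without the 10 highest genes and 0.0821% per kb. The share of aminergic neuron markers, 0.00821%, was 0.00999% and 0.0126% in the same settings. Of the pathway genes 16 of 55 tested were called, and from 6 (without replicate 2) and 9 (without replicate 3) to 16 with one library left out. The share of all genes called was 4.99%, 3.52% and, without replicate 1, 9.87%. Between 12 and 16 were called under the other settings. Planned divisions by exon and coding length were not run. No paired analysis was possible because only 1 group of RNA libraries was analysed here. Depth limits the low receptors: one of them rests on 6 to 11 reads per library.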
